A study of Mus musculus with 50 samples.

Results

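The genes described here are 10 inflammatory cytokine and inflammasome genes: the cytokines Il1a, Il1b, Il18, Tnf, Il6 and Il10, the interleukin-1 receptor antagonist Il1rn, the inflammasome genes Nlrp3 and Casp1, and the NF-kappaB inhibitor Nfkbia. They were chosen by name, all 10 were found once each among the 48526 genes of the count table, and 9 had enough counts to be tested in at least 1 comparison. Il10 was tested in none. The libraries, 50 in 14 groups, were made from RNA of microglia, the resident macrophages of the brain, sorted from mice. All mice carried HDAC1/2-loxP/loxP alleles, in which the genes of the histone deacetylases Hdac1 and Hdac2 can be cut out by Cre recombinase.

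In the constitutive model, knockouts carried CX3CR1-Cre, controls carried no Cre, and neither received treatment. The groups held 4 controls and 3 knockouts at birth (P0), 4 and 2 at 2 weeks (14 days), and 4 and 3 at 6 weeks (45 days). In the inducible model, knockouts carried CX3CR1-CreERT2, a Cre that works only in the presence of tamoxifen, and controls again carried no Cre. The dams of both received 3 mg tamoxifen, given with progesterone, on embryonic day 13. These groups held 4 controls and 3 knockouts on embryonic day 16 (E16), 3 and 4 at P0, 4 and 4 at 2 weeks, and 4 and 4 at 6 weeks. Because controls had no Cre, an effect of the Cre allele and an effect of losing the deacetylases cannot be told apart. The Cx3cr1 promoter is also active in border macrophages and monocytes.

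Interleukin-1 alpha and beta signal through one receptor, and the antagonist Il1rn occupies that receptor without activating it. Interleukin-1 beta and interleukin-18 are made as inactive precursors that caspase-1 cuts inside an inflammasome, a complex built on a sensor such as Nlrp3. Transcription of Il1b, Tnf, Il6 and Nlrp3 is driven by NF-kappaB, and Nfkbia encodes the inhibitor that holds NF-kappaB in the cytoplasm and is itself induced by it. Microglia are known as the main brain source of interleukin-1, while neutrophils also carry Il1b and Il1rn messages.

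Il1a (2:129299610-129309972) and Il1b (2:129364570-129371139) are neighbours on the minus strand of chromosome 2 in GRCm38, and Il1rn (2:24336853-24351494) lies on the plus strand of the same chromosome. Of the 10 genes, 9 had a promoter entry in RefSeq (GRCm38.p6), and the 250 bases upstream of each start were searched on both strands for the kappaB consensus of NF-kappaB and for the core of the macrophage factor PU.1, GAGGAA. The 2 motifs do not overlap. The kappaB consensus was found upstream of Il6, Nlrp3 and Nfkbia, and is held by 7.25% of 32851 promoters. GAGGAA was found upstream of Il1a, Tnf, Nlrp3 and Casp1, and is held by 23.3%. The 9 genes have 12 promoter entries. A gene is named if any of its entries holds the motif, while the shares are per entry. The kappaB match and GAGGAA of Nlrp3 lie in different entries, and only the entry with the kappaB match is printed. Shown are the promoters of the neighbours Il1a and Il1b, which moved in opposite directions in the constitutive knockouts at P0 and 2 weeks, and the 3 with a kappaB match, which is in capitals. Each is written 5′ to 3′ on the strand of its gene and ends 1 base before the start.
Il1a, chr2:129309973-129310222, minus strand: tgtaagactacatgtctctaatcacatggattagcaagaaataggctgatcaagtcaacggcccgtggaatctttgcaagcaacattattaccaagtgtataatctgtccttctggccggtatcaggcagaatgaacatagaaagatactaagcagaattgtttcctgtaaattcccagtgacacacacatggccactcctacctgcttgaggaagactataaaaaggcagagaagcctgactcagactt
Il1b, chr2:129371140-129371389, minus strand: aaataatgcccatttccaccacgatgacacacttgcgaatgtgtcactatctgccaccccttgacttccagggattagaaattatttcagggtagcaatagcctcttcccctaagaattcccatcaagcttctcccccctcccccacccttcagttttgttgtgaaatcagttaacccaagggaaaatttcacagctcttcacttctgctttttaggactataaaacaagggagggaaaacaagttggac
Il6, chr5:30012864-30013113, plus strand: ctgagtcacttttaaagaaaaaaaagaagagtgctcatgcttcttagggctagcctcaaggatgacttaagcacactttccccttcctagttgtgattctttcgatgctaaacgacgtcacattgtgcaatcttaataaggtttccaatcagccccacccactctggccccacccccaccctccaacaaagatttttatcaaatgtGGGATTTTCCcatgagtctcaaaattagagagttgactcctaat
Nlrp3, chr11:59541319-59541568, plus strand: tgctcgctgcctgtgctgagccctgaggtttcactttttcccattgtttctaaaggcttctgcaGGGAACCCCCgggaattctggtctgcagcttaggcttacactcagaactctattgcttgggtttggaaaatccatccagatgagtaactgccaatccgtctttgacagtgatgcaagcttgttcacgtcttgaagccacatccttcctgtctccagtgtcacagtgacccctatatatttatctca
Nfkbia, chr12:55492648-55492897, minus strand: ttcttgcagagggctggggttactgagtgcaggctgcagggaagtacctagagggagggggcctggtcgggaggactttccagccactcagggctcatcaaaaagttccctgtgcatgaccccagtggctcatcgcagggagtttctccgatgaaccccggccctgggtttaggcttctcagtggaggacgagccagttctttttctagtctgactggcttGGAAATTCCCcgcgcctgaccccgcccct
The kappaB match begins 44 bases upstream of the start of Il6, 186 bases upstream of Nlrp3 and 29 bases upstream of Nfkbia. A match describes the letters of a window and is not a measurement of binding.

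The libraries held 11050277 to 29651179 counts (median 18052690). Values are CPM, a gene's count scaled to the library total, without TMM scaling, or CPM per kilobase (RPKM) where genes are compared. A change is edgeR's fitted log2 difference, knockout over control, ± its standard error. A gene rose or fell when its adjusted p in edgeR's quasi-likelihood test, by Benjamini-Hochberg over all genes tested, was under 0.05. The levels of the targeted genes went against some labels. Hdac2 fell in the inducible model at P0, 2 and 6 weeks and in the constitutive model at 6 weeks, with changes of -1.19 to -1.42, and passed in no other comparison, while Hdac1 passed in none. At P0 the libraries labelled constitutive knockout held 124 to 190 CPM of Hdac2 against 126 to 164 in controls. Their Hdac1 stood at 8.86, 10.3 and 35.7 CPM against 11.4 to 13.6 in controls. The libraries labelled constitutive 2-week knockout held 41.0 and 70.1 CPM (80 and 89) against 59.8 to 71.3 in controls (log2 change -0.24 ± 0.23, adjusted p = 0.43, edgeR). Hdac2 stood at 316 CPM in the library labelled inducible E16 knockout 1 (68.6 and 71.4 in the others), and Hdac1 at 92.2 CPM in the library labelled constitutive 6-week knockout 380 (7.56 and 11.5). The deleted exons are not given in the labels, and the counts cover whole genes. The list of 10 microglia markers includes Cx3cr1, and none of the 10 was at 0 in any group. They summed to 1018 to 3902 CPM in the constitutive P0 knockout libraries against 21300 to 24660 in their controls, and to at least 6234 CPM in every other group. In sorted bulk RNA, fewer cells of a type and less RNA per cell cannot be told apart.

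The constitutive knockouts differed from their controls in these genes at all 3 ages. Il1b and Il1rn rose at P0, 2 weeks and 6 weeks, Tnf and Nfkbia rose at 2 and 6 weeks, and Il1a and Nlrp3 fell at P0 and 2 weeks. At P0, 2 of 9 tested genes rose and 4 fell, where 41.6% of all genes tested were called (21.4% rose and 20.2% fell). At 2 weeks 5 rose and 3 fell, against a background of 42.1% called (24.4% and 17.8%). At 6 weeks 4 rose and none fell, against 12% (6.76% and 5.24%). The median change of the tested genes was -0.63, 0.75 and 0.39 at the 3 ages, beside 0.04, 0.002 and -0.01 over all genes tested.

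After prenatal treatment, in the inducible model, 1 of 9 tested genes passed at P0, Il1a, which fell, where 10.4% of all genes were called (6.81% rose and 3.56% fell). None of 9 passed at E16, where 0% of all genes did, none of 8 at 2 weeks, where 2.25% did (1.11% rose and 1.13% fell), and none of 9 at 6 weeks, where 0.0633% did (0.0492% and 0.0141%). By an unadjusted p under 0.05 there were 5 at E16, all lower, 4 at P0, 3 of them lower, 1 at 2 weeks and 0 at 6 weeks. DESeq2 called 2, 2, 0 and 0. Over all genes at these ages, 2306 of 17594, 4823 of 17573, 2214 of 13921 and 626 of 14217 passed the unadjusted limit in edgeR's test. How many of those were lower was not counted, so the direction of the members has no share beside it. DESeq2 called 881, 2911, 662 and 44 of all genes. In 1 fit over all groups 4 of the 9 fell at E16: Il1b, Il1rn, Il18 and Nlrp3. The number of all genes called in that fit is given with the other settings below. The grid of changes by gene and comparison sets the models side by side.

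**Figure D1:**
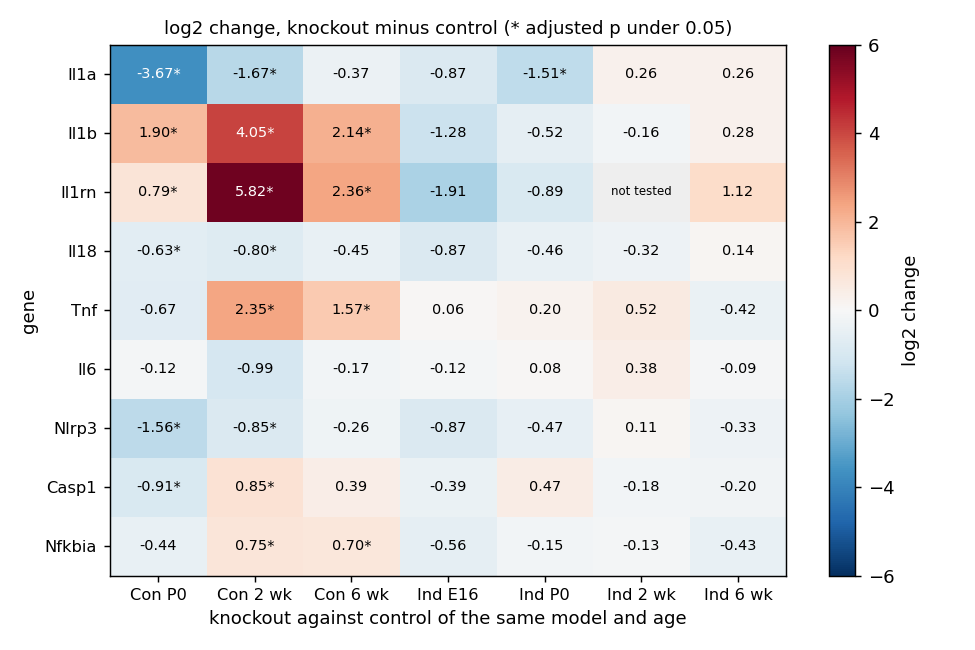
Fitted log2 change, knockout over control, of the 9 tested genes (rows) in the 7 knockout comparisons (columns), with red for higher and blue for lower and a star for an adjusted p under 0.05. Il1b and Il1rn carry stars at all 3 constitutive ages (Con), and the 4 inducible columns (Ind) hold 1 star, Il1a at P0.

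Il1a, which encodes the alpha form of interleukin-1 and needs no caspase-1 cut to act, was among the higher of these messages in controls and low in young knockouts. At P0 the constitutive knockout libraries held 3.88, 4.19 and 21.2 CPM and the controls 84.2, 88.6, 88.8 and 129. All 3 knockouts lay below all 4 controls, and library 68 was the highest knockout. The fall was -3.67 ± 0.55 (adjusted p = 0.00046, edgeR), and -4.96 without library 68. Of all genes tested, 52.1% had no overlap in CPM between the groups at P0, 56.9% at 2 weeks and 22.7% at 6 weeks in the constitutive model.

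At 2 weeks the constitutive knockouts held 48.1 and 79.8 CPM of Il1a against 185, 186, 209 and 216 in controls. Both lay below every control, and the fall was -1.67 ± 0.17 (adjusted p = 8.1e-05, edgeR). By 6 weeks the knockouts stood at 132, 229 and 232 CPM and the controls at 210, 211, 219 and 344. The groups overlapped, and the change was -0.37 ± 0.24 (adjusted p = 0.43, edgeR). The effect at 6 weeks was above that at 2 weeks by 1.29 ± 0.34 (adjusted p = 0.021, edgeR), a difference that did not pass without 2-week knockout 89 (1.06, adjusted p = 0.13).

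In inducible knockouts Il1a fell at P0 and passed at no other age. At E16 the knockouts held 16.1, 63.8 and 66.1 CPM and the controls 59.9, 77.7, 79.0 and 125, and the change was -0.87 ± 0.51 (adjusted p = 0.52, edgeR). Knockout 1 was the low one, and 59.9 CPM in the lowest control lay below the other 2 knockouts. Without knockout 1 the change was -0.42. At P0 the knockouts held 25.1, 29.4, 30.4 and 34.6 CPM against 64.3, 75.1 and 122, all 4 below all 3 controls, in a comparison where the groups did not overlap for 26.1% of all genes. Il1a fell there by 1.51 ± 0.21 on the log2 scale, with an adjusted p of 0.0016 in edgeR's test.

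Inducible knockouts of 2 weeks held 184, 238, 240 and 272 CPM of Il1a and the controls 164, 177, 191 and 208 (log2 change 0.26 ± 0.10, adjusted p = 0.21, edgeR), which passed without knockout 6 (0.34, adjusted p = 0.044). At 6 weeks they held 190, 222, 233 and 324 against 150, 153, 230 and 259 (0.26 ± 0.20, adjusted p = 1). The groups overlapped at both ages, and in all 8.58% of genes at 2 weeks and 3.29% at 6 weeks had no overlap. From P0 to 2 weeks the inducible effect on Il1a moved up by 1.84 ± 0.23 (adjusted p = 0.0002, edgeR), in a test where 4.38% of all genes passed (2.67% upward and 1.71% downward), and Il1a was the 1 tested member that did. DESeq2 also called Nlrp3 (0.65) and Casp1 (-0.56), which passed edgeR's test without P0 knockout 57 (0.81) and 48 (-0.62). Beside these values, the summed microglia markers were 9431 to 13060 CPM in the inducible P0 knockouts against 21430 to 23120 in controls, 46970 to 56100 against 56020 to 59240 at 2 weeks, and 6234 to 16460 against 17040 to 26640 at E16. In the constitutive model they were 15680 and 23910 against 56540 to 62920 at 2 weeks and 33760 to 47390 against 57670 to 60140 at 6 weeks. These sums include Cx3cr1, the gene whose promoter drives the Cre. Cx3cr1 fell at P0, 2 weeks and 6 weeks in both models (log2 changes -0.91 to -4.70), and at E16 did not pass (-2.47, adjusted p = 0.098, edgeR). In inducible knockouts its mean was 3355 CPM against 6020 in controls at 2 weeks, and 3562 against 7620 at 6 weeks. The part of the Cre allele in these falls was not tested. The part of microglial RNA in the changes of Il1a and Nlrp3 was not tested. Exons of Il1a share 222 bases with the gene Gm14023.

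Nlrp3, the sensor on which the inflammasome is built, followed the levels of Il1a. Over the 14 group means the Pearson r of the pair was 0.963, a description only, since the points share libraries and cell makeup. In the constitutive model at P0 the knockouts held 18.2, 20.0 and 20.5 CPM and the controls 39.1, 39.7, 48.4 and 51.7. No knockout reached the lowest control, and the fall was -1.56 ± 0.18 (adjusted p = 8e-05, edgeR). The 2-week values were 41.3 and 43.7 against 66.0, 71.5, 78.2 and 90.5 CPM, again without overlap. The fall was -0.85 ± 0.16 (adjusted p = 0.0022, edgeR).

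At 6 weeks Nlrp3 stood at 73.3, 89 and 99.5 CPM in constitutive knockouts and 88.8, 90.8, 103 and 122 in controls, with the groups overlapping (log2 change -0.26 ± 0.14, adjusted p = 0.31, edgeR). Inducible knockouts at E16 held 18.7, 36.3 and 39.4 CPM, below the 51.0, 53.7, 57 and 57 of the controls. The groups did not overlap, as for 19.1% of all genes there, but the change missed the threshold (log2 change -0.87 ± 0.29, adjusted p = 0.27, edgeR). Without knockout 1, the library with 18.7 CPM and high Hdac2, it was -0.56 and passed (adjusted p = 0.04), along with 638 genes in all. Nlrp3 also passed in 1 fit over all groups (-0.92, adjusted p = 0.036). Knockout 1 stood apart in marker sums too, with 6234 CPM for microglia (16460 and 16140 in the other 2 knockouts), 2837 for neurons (525 and 350), 13310 for erythroid cells (744 and 1023) and 451 for astrocytes (104 and 91.1).

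At P0 the inducible knockouts held 23.1, 33.5, 35.4 and 39.5 CPM of Nlrp3 and the controls 42.2, 46.5 and 49.3, without overlap and without passing (log2 change -0.47 ± 0.19, adjusted p = 0.14, edgeR). At 2 weeks they held 72.1, 75.3, 82.3 and 83.2 against 57.7, 60.9, 74.2 and 84.4 (log2 change 0.11 ± 0.11). The 6-week control libraries were themselves wide apart, at 35.3, 56.5, 92.3 and 161 CPM, with knockouts at 47.0, 59.4, 68.7 and 105 (-0.33 ± 0.49). The plot of Il1a, Nlrp3 and the microglia markers puts these libraries on one axis.

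**Figure D2:**
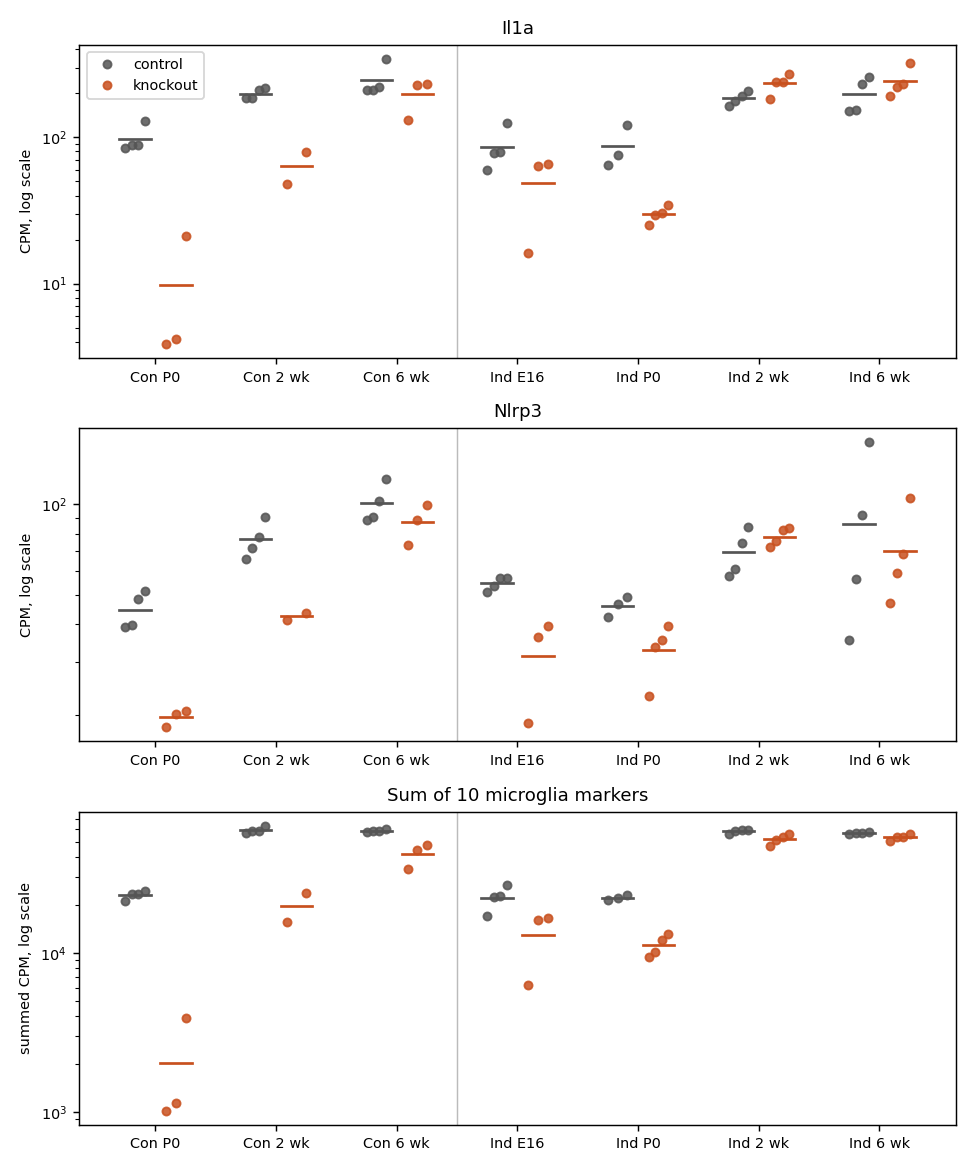
CPM of Il1a, of Nlrp3 and of the sum of 10 microglia markers in each library (points, log axes; bars are group means), controls in grey and knockouts in orange, by model and age. In the constitutive P0 column all 3 panels place the knockouts below the controls, with Il1a at 3.88 to 21.2 CPM and the marker sum at 1018 to 3902 CPM.

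Casp1, the protease that matures interleukin-1 beta and interleukin-18, changed direction with age in the constitutive model. At P0 the knockouts held 47.0, 50.5 and 75.7 CPM and the controls 78.9, 85.3, 86.2 and 89.4. The groups did not overlap, and the fall was -0.91 ± 0.18 (adjusted p = 0.002, edgeR). By 2 weeks the knockouts, at 103 and 105 CPM, stood above the 51.9, 56.5, 59.4 and 62.5 of all controls, and the rise was 0.85 ± 0.13 (adjusted p = 0.00056, edgeR). The effects at the 2 ages differed by 1.70 ± 0.22 (adjusted p = 4e-05, edgeR).

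At 6 weeks all constitutive knockouts (95.1, 101 and 107 CPM) again lay above the controls (65.9, 67.9, 71 and 92.7), and the change did not pass (log2 change 0.39 ± 0.14, adjusted p = 0.091, edgeR). Without the highest control, at 92.7 CPM, it passed (0.52, adjusted p = 0.0073). Casp1 of the inducible model stood at 109, 119, 148 and 152 CPM in P0 knockouts and 84.2, 99.0 and 108 in controls. The groups differed by little at the edge, 109 against 108 CPM, and the change was 0.47 ± 0.17 (adjusted p = 0.095, edgeR). At E16, 2 weeks and 6 weeks its changes were -0.39 ± 0.32, -0.18 ± 0.10 and -0.20 ± 0.17, and the groups overlapped.

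Il1b, the beta form of interleukin-1 that is released after cutting by caspase-1, was high in every constitutive knockout. At P0 the knockouts held 70.4, 89 and 108 CPM and the controls 12.3, 17.6, 18.6 and 25.6. Each knockout lay above each control, by a rise of 1.90 ± 0.25 (adjusted p = 0.00018, edgeR), or 3.74-fold. The 2 knockouts of 2 weeks held 36.9 and 44.1 CPM against 1.67, 2.39, 2.89 and 2.92, a gap with no library between. The rise was 4.05 ± 0.25 (adjusted p = 4.9e-06, edgeR), or 16.6-fold.

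At 6 weeks the constitutive knockouts held 16.3, 29.8 and 38.2 CPM of Il1b and the controls 5.01, 5.27, 6.69 and 7.67. The groups stayed apart, and the rise was 2.14 ± 0.28 (adjusted p = 0.00044, edgeR), or 4.40-fold. The effect was larger at 2 weeks than at P0 by 2.09 ± 0.39 (adjusted p = 0.0007, edgeR) and then moved by -1.92 ± 0.41 from 2 to 6 weeks (adjusted p = 0.0069). Reads over the 25 bases that Il1b shares with its antisense gene Il1bos cannot be assigned to either gene, since the library kit does not mark strand.

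Il1b passed edgeR's test at no age in the inducible model. At E16 its knockouts held 3.44, 4.43 and 5.64 CPM of Il1b and its controls 6.92, 7.39, 12.3 and 14.7. Every knockout was below every control, and the change was -1.28 ± 0.40 (adjusted p = 0.24, edgeR). It passed by DESeq2 (-1.31, adjusted p = 0.033) and in 1 fit over all groups (-1.32, adjusted p = 0.020). At P0 the values were 9.37, 14.0, 14.6 and 19.5 against 12.5, 18.1 and 31.6 CPM, and overlapped (log2 change -0.52 ± 0.31, adjusted p = 0.31, edgeR). At 2 weeks they were 1.49, 1.73, 2.20 and 2.64 against 1.23, 1.38, 1.86 and 4.04, and at 6 weeks 3.46, 5.50, 7.88 and 9.18 against 3.32, 5.27, 5.73 and 6.62. Both pairs overlapped, with changes of -0.16 ± 0.39 and 0.28 ± 0.31.

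Il1rn, the receptor antagonist, moved with Il1b (Pearson r 0.900 over the 14 group means, a description with shared libraries). At P0 the constitutive knockouts held 20.6, 24.3 and 31.6 CPM and the controls 6.68, 11.8, 13.1 and 14.2. The groups did not overlap. The rise of 0.79 ± 0.28 (adjusted p = 0.041, edgeR) is smaller than the ratio of the mean CPM (25.5 against 11.5), which lacks TMM scaling. It did not pass without control 69 or 71 (0.82 and 0.88) or without knockout 73 or 76 (0.85 and 0.58), with adjusted p of 0.062, 0.055, 0.076 and 0.17, nor in 1 fit over all groups (1.02, adjusted p = 0.19).

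Constitutive knockouts held 21.6 and 66.3 CPM of Il1rn at 2 weeks, against 0.173, 0.325, 0.661 and 2.01 in controls. Even the highest control, library 81, was far below both knockouts. The rise was 5.82 ± 0.85 (adjusted p = 0.0029, edgeR), or 56.3-fold, the largest of the 9 genes in any of the 7 knockout comparisons. Its size turned on single libraries, at 6.46 without knockout 80, 4.64 without knockout 89 and 6.81 without control 81. At 6 weeks the knockouts held 6.12, 9.20 and 12.6 CPM and the controls 1.34, 1.44, 1.48 and 2.75, again apart. The rise was 2.36 ± 0.35 (adjusted p = 0.00096, edgeR), or 5.15-fold.

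Il1rn passed edgeR's test at none of the 3 ages at which it could be tested in the inducible model. At E16 the knockouts held 3.44, 4.81 and 6.92 CPM and the controls 11.8, 12.2, 19.0 and 28.2, without overlap (log2 change -1.91 ± 0.46, adjusted p = 0.16, edgeR). It passed by DESeq2 (-1.94, adjusted p = 0.0021) and in 1 fit over all groups (-1.95, adjusted p = 0.048). At P0 they held 6.97, 7.20, 7.29 and 11.8 against 12.9, 16.3 and 17.4 CPM, also without overlap (log2 change -0.89 ± 0.27, adjusted p = 0.053, edgeR), and without knockout 53, the highest, the change was -1.15 and passed (adjusted p = 0.02). The P0 change also passed by DESeq2 (-0.92, adjusted p = 0.010) and without a filter on low counts (-0.90, adjusted p = 0.045). At 2 weeks it had too few counts to be tested, with 0.270 to 0.378 CPM in knockouts. At 6 weeks 1 knockout, library 6, stood at 7.76 CPM, and the other 7 libraries of both groups at 0.303 to 1.91 CPM.

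Neutrophil marker sums were above the controls at all 3 ages in the constitutive knockouts. The 10 neutrophil markers, none at 0 in any group, summed to 7441 to 11510 CPM in the constitutive P0 knockouts against 688 to 1635 in controls, to 17890 and 51160 (libraries 80 and 89) against 115 to 830 at 2 weeks, and to 2189 to 4889 against 400 to 686 at 6 weeks. Within groups the order of Il1b followed that of the sum in some cases and not in others. At 2 weeks library 89, with the higher sum, had the higher Il1b (44.1 against 36.9 CPM) and the higher Il1rn. In the inducible P0 controls 56, 54 and 55 the sums were 1089, 3152 and 3796 CPM, and Il1b stood at 12.5, 18.1 and 31.6 CPM. At 6 weeks the constitutive knockout with the lowest sum, 2189 CPM, held the most Il1b, 38.2 CPM. The 7 monocyte markers summed to 808 to 1282 CPM against 140 to 234 at P0, 1438 and 3430 against 16.4 to 66.0 at 2 weeks, and 150 to 670 against 46.7 to 111 at 6 weeks. The 7 border macrophage markers summed to 2500 and 2750 CPM against 113 to 162 at 2 weeks and to 987 to 1656 against 30.5 to 68 at 6 weeks, and overlapped at P0. In the constitutive P0 knockouts the sums of further lists also lay above the controls without overlap: neurons at 2552 to 3197 CPM against 716 to 1572, astrocytes at 966 to 1101 against 322 to 605, the oligodendrocyte lineage at 386 to 485 against 130 to 205, erythroid cells at 2184 to 2917 against 586 to 1071, vascular cells at 215 to 266 against 80.5 to 115, and lymphocytes at 54.2 to 92.4 against 6.45 to 17.7. The inducible 6-week knockout 6, which stood apart in Il1rn, held 8392 CPM of the neutrophil markers, against 626 to 1110 in the 3 other knockouts, and 533 CPM of the monocyte markers against 59.7 to 103. That library held the least Il1b of its group, 3.46 CPM. At E16 control 2 held 7054 CPM of the neutrophil markers (1523 to 2676 in the other controls), the most Il1rn of its group, 28.2 CPM, and 7.39 CPM of Il1b. The part of other cell types in the changes of these genes was not tested. The plot of Il1b, Il1rn and the neutrophil sum shows the libraries together.

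**Figure D3:**
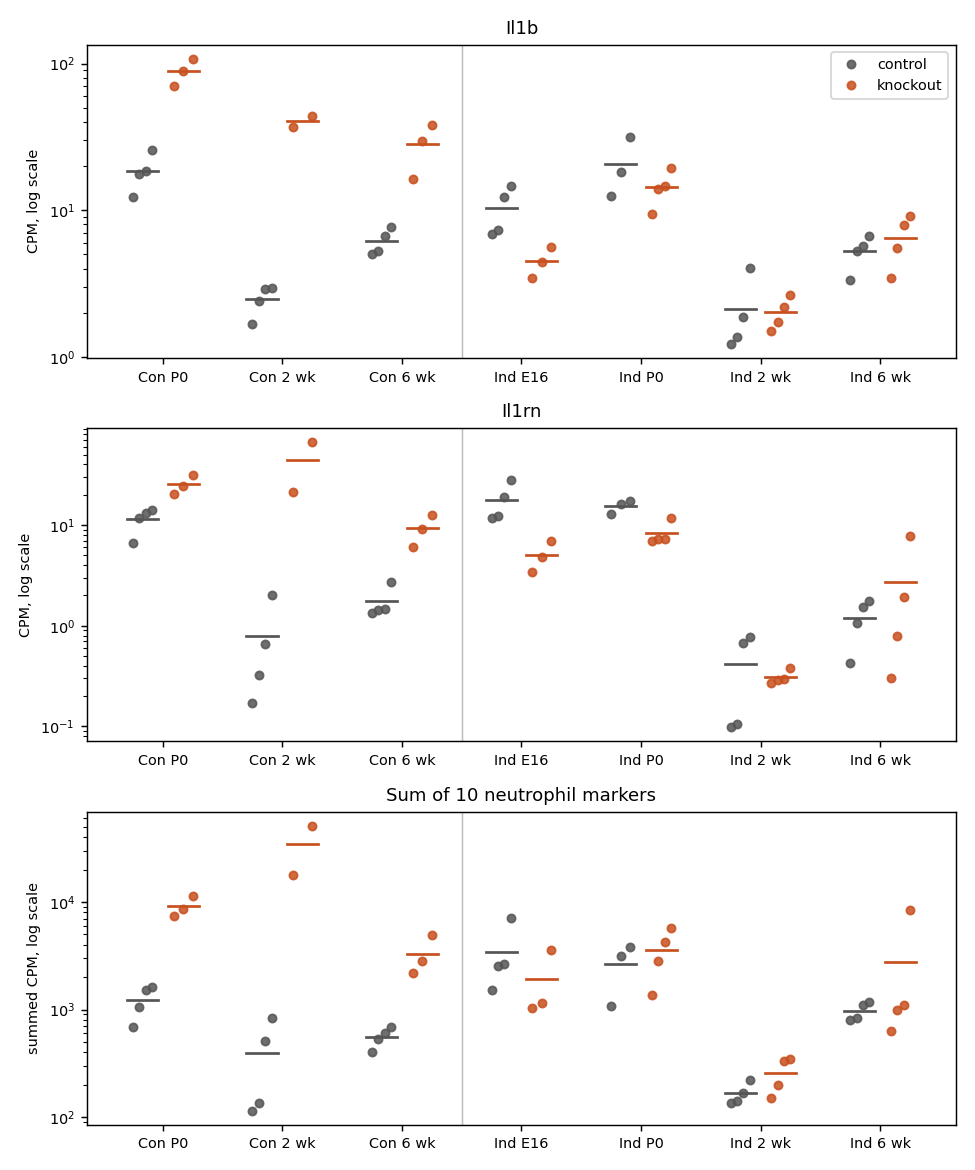
CPM of Il1b, of Il1rn and of the sum of 10 neutrophil markers in each library (points, log axes; bars are group means), controls in grey and knockouts in orange, by model and age. The constitutive knockouts lie above their controls in all 3 panels at all 3 ages, and 1 inducible 6-week knockout stands apart with 7.76 CPM of Il1rn and a marker sum of 8392 CPM.

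Tnf, the cytokine tumour necrosis factor, rose at 2 and 6 weeks in the constitutive model and did not pass at P0. At P0 the knockouts held 3.94, 7.43 and 8.50 CPM and the controls 5.36, 5.55, 7.70 and 13.9, with overlap (log2 change -0.67 ± 0.41, adjusted p = 0.21, edgeR). At 2 weeks they held 20.6 and 31.9 CPM against 4.02, 4.14, 6.16 and 6.40, with both knockouts above every control. The rise was 2.35 ± 0.29 (adjusted p = 0.00022, edgeR), or 5.11-fold, and the effect differed from that at P0 by 2.96 ± 0.56 (adjusted p = 0.00087, edgeR).

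At 6 weeks the constitutive knockouts held 14.2, 15.5 and 17.6 CPM of Tnf and the controls 3.00, 3.55, 4.43 and 9.22. The knockouts lay close together and above all controls, of which 1 stood highest at 9.22 CPM. The rise was 1.57 ± 0.34 (adjusted p = 0.011, edgeR), or 2.98-fold. In the inducible model the groups overlapped at all 4 ages. From E16 to 6 weeks the changes were 0.06 ± 0.54, 0.20 ± 0.35, 0.52 ± 0.33 and -0.42 ± 0.30, with 1.99 to 12.7 CPM over the 15 controls and 2.31 to 11.2 CPM over the 15 knockouts.

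Nfkbia, which encodes the inhibitor that holds NF-kappaB in the cytoplasm and is itself induced by it, also rose at 2 and 6 weeks in the constitutive model. At P0 it stood at 61.0, 73.1 and 88.8 CPM in knockouts and 66.7, 76, 76.5 and 93.5 in controls, with overlap (log2 change -0.44 ± 0.17, adjusted p = 0.065, edgeR), and passed without control 70 (-0.55, adjusted p = 0.015) or knockout 76 (-0.61, adjusted p = 0.026). At 2 weeks the knockouts held 124 and 194 CPM and the controls 82.3, 82.6, 103 and 117. At 6 weeks they held 170, 210 and 287 against 103, 124, 141 and 161 CPM. The groups did not overlap at either age, though the lowest knockout was near the highest control.

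The rises were 0.75 ± 0.24 (adjusted p = 0.033, edgeR) and 0.70 ± 0.19 (adjusted p = 0.037, edgeR). Both calls lay near the threshold and were lost when most single libraries were left out in turn. The first did not pass without control 77, 78 or 81 or knockout 89 (0.27 to 0.79, lowest without 89), and the second did not pass without 3 of the 4 controls and 2 of the 3 knockouts, each in turn (0.48 to 0.74, lowest without 380). Neither passed in 1 fit over all groups (adjusted p = 0.16 and 0.30).

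Inducible libraries of one group differed widely in Nfkbia. At P0 control 56 and knockout 57 held 203 and 235 CPM, and the other libraries 51.1 to 82.2 CPM. The same 2 libraries held the highest Tnf of their groups, 9.89 and 11.2 CPM, and the lowest sums of border macrophage markers, 3015 and 8512 CPM. Their sums of neutrophil markers (1089 and 1373 CPM) and of monocyte markers (174 and 131 CPM) were also the lowest of their groups. With both left out, a setting chosen after the values were seen, the change of Nfkbia went from -0.15 ± 0.75 to -0.42 ± 0.19 (adjusted p = 0.21) and Il1a still fell (-1.33, adjusted p = 0.0015). At 6 weeks controls 10 and 11 held 249 and 259 CPM of Nfkbia, above the 111 to 161 CPM of every knockout and the 117 and 137 CPM of the other controls. At E16 the knockouts held 47.2, 48.4 and 53.5 CPM, all below the 55.5, 58.4, 67.6 and 90.2 of the controls (log2 change -0.56 ± 0.21, adjusted p = 0.33, edgeR). The change at 2 weeks was -0.13 ± 0.12.

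Il18, the interleukin matured by caspase-1 alongside Il1b, fell in constitutive knockouts at P0 and 2 weeks. At P0 its CPM overlapped, with 30.3, 31.8 and 32.9 in knockouts and 31.9, 39.9, 40.0 and 40.6 in controls, where control 70 was the low one. After TMM scaling the fall was -0.63 ± 0.16 (adjusted p = 0.01, edgeR), which did not pass in 1 fit over all groups (-0.41, adjusted p = 0.19). Both knockouts of 2 weeks were low, at 19.6 and 26.6 CPM against 35.2, 38.8, 39.5 and 45.2, without overlap. The fall was -0.80 ± 0.16 (adjusted p = 0.0037, edgeR).

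At 6 weeks Il18 stood at 36.7, 37.6 and 46.2 CPM in constitutive knockouts and 46.0, 47.4, 53.8 and 64.2 in controls, which met at 46 CPM (log2 change -0.45 ± 0.15, adjusted p = 0.085, edgeR). The 3 inducible knockouts at E16 (20.7, 25.1 and 29.7 CPM) lay below all controls (32.3, 35.9, 49.6 and 53.3 CPM) without passing (log2 change -0.87 ± 0.26, adjusted p = 0.24, edgeR), except in 1 fit over all groups (-0.91, adjusted p = 0.0094). At P0, 2 weeks and 6 weeks its changes were -0.46 ± 0.30, -0.32 ± 0.16 and 0.14 ± 0.17, all with overlap, and the first passed without knockout 53 (-0.83, adjusted p = 0.049).

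Il6, a cytokine that NF-kappaB can induce, passed the test in no knockout comparison. At 2 weeks the constitutive knockouts held 1.86 and 6.92 CPM and the controls 7.66, 7.94, 8.44 and 9.51. Both were below all controls, and the change was -0.99 ± 0.42 (adjusted p = 0.084, edgeR). It passed by DESeq2 (-1.0, adjusted p = 0.046) and without a filter on low counts (-0.98, adjusted p = 0.047). Library 89 held 1.86 CPM, and without library 80 the change was -2.07 and passed (adjusted p = 0.00059).

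At 6 weeks the constitutive knockouts were spread over 7.42, 17 and 22.7 CPM, around the 15.1, 16.8, 17.3 and 18.7 of the controls (-0.17 ± 0.30). At P0 they held 2.24, 2.45 and 3.18 against 2.08, 2.09, 2.15 and 2.57 CPM (-0.12 ± 0.36). Changes in the inducible model, from E16 to 6 weeks, were -0.12 ± 0.70, 0.08 ± 0.40, 0.38 ± 0.23 and -0.09 ± 0.26. The groups overlapped in each of these comparisons.

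**Figure D4:**
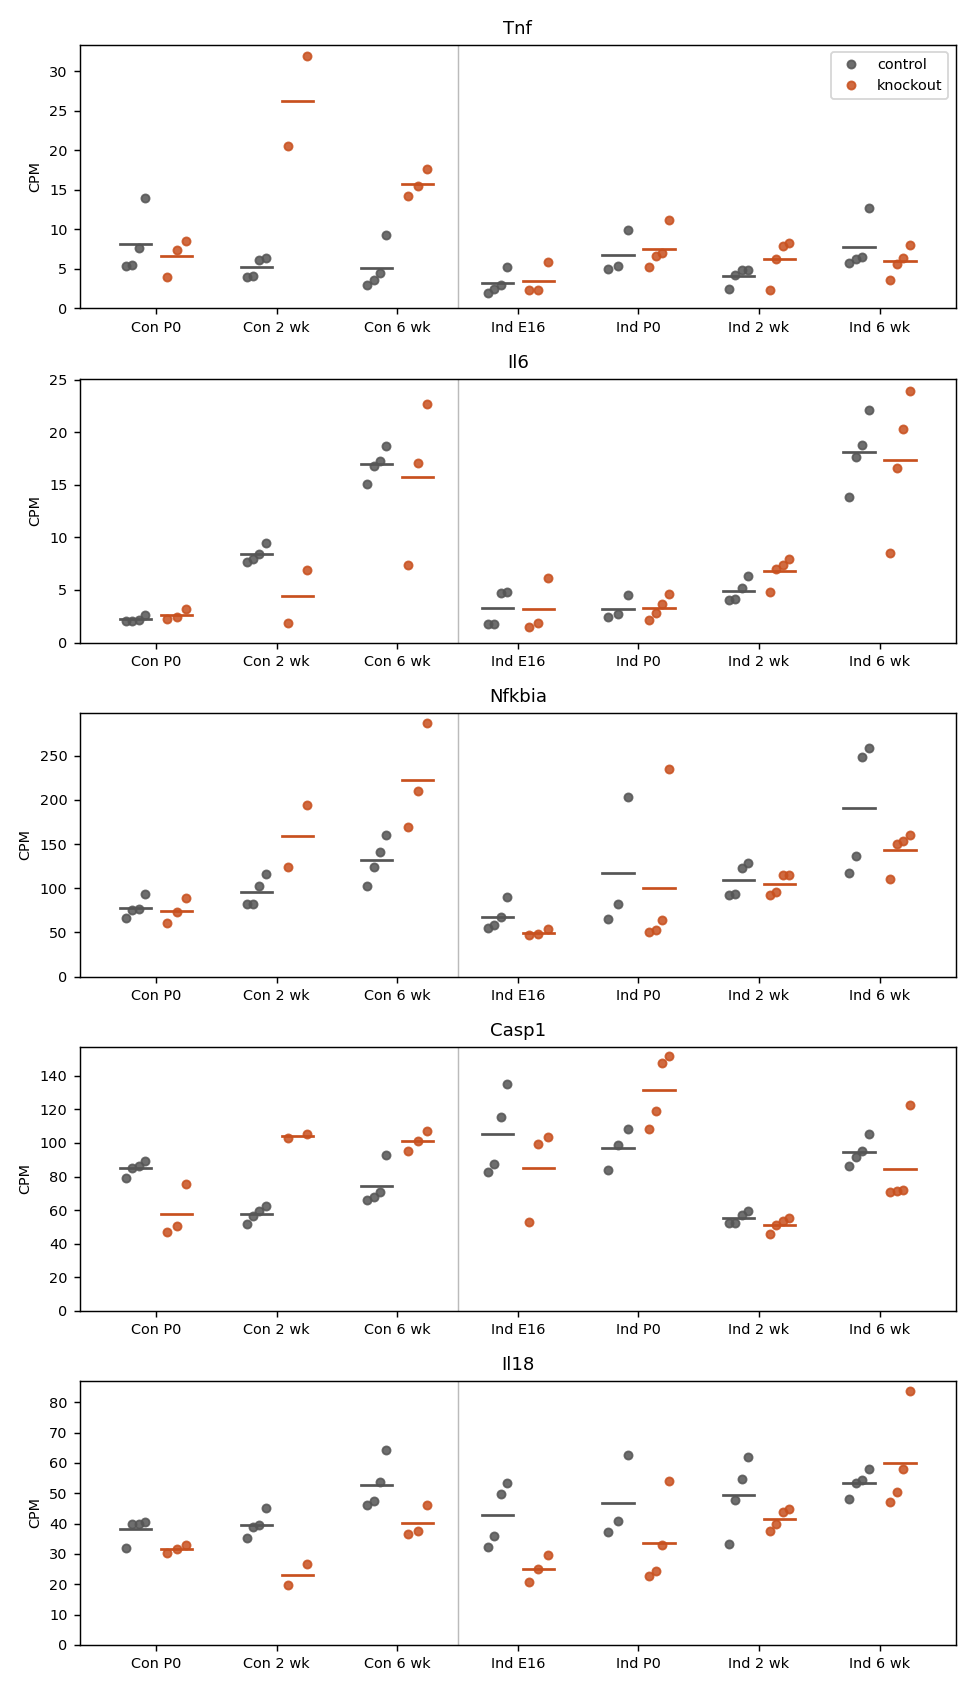
CPM of Tnf, Il6, Nfkbia, Casp1 and Il18 in each library (points; bars are group means; linear axes from 0), controls in grey and knockouts in orange, by model and age. At 2 weeks the constitutive knockouts stand above the controls for Tnf (20.6 and 31.9 CPM), Nfkbia and Casp1 and below them for Il6 and Il18, and 1 control and 1 knockout of the inducible model at P0 stand apart for Nfkbia (203 and 235 CPM).

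Il10, a cytokine that restrains inflammation, had few counts. It had 0 counts in all libraries of 6 groups (constitutive controls at 2 and 6 weeks, constitutive knockouts at 2 weeks, inducible controls at 2 and 6 weeks and inducible knockouts at 2 weeks), which allows 0.0361 to 0.0748 CPM over a group at 3 counts. These limits cover counting error only. Its highest value was 1.24 CPM, in the inducible P0 knockout 49. At E16 the controls held 0, 0, 0.102 and 0.809 CPM and the knockouts 0, 0.308 and 0.802. At P0 the inducible knockouts held 0 to 1.24 CPM (47 counts in all) and the controls 0 to 0.229 CPM (8 counts). Il10 was tested in no comparison, so neither a difference nor its absence was shown.

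Other genes of the same pathways, 60 receptors, cytokines, inflammasome parts and NF-kappaB regulators, gave a wider view. The part of cell makeup in the changes of these pathway genes was not tested in either model. In constitutive knockouts of every age, microglia marker sums lay below the controls, and neutrophil and monocyte sums above them. In the constitutive model at P0, 5 of the 56 tested rose and 35 fell, where 21.4% of all genes rose and 20.2% fell. Their median change was -0.97, beside 0.04 over all genes. The decoy receptor Il1r2, which binds interleukin-1 without signalling, rose from 11.5 to 29.4 CPM in controls to 112 to 230 CPM in knockouts (log2 change 2.58 ± 0.32, adjusted p = 0.00012, edgeR). Il1rap, the second chain of the interleukin-1 receptor, rose by 0.81 ± 0.17 and Mefv, the pyrin inflammasome sensor, by 2.44 ± 0.55. Il10ra, the receptor chain for interleukin-10, fell from 171 to 260 CPM to 32.7 to 46.8 CPM (log2 change -2.89 ± 0.21, adjusted p = 1.9e-05, edgeR). Casp8, a caspase of cell death and inflammasome signalling, fell by 2.14 ± 0.17 and the cytokine Il16 by 1.64 ± 0.14. Of the 12 inflammasome and pyroptosis genes, 9 fell and 2 rose, and of the 21 NF-kappaB genes and adaptors 13 fell and none rose.

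In the constitutive model at 2 weeks, 15 of 56 tested pathway genes rose and 13 fell (median change 0.10), where 24.4% of all genes rose and 17.8% fell. Mefv had 2 counts in all 4 controls together and 177 and 608 in the 2 knockouts. Irak3, an inhibitor of signalling from interleukin-1 and Toll-like receptors, stood at 42.7 and 94.8 CPM in knockouts and 1.30 to 2.82 CPM in controls (log2 change 5.23 ± 0.43, adjusted p = 6.7e-05, edgeR), and at 4.40 without library 89. Il18rap, a chain of the interleukin-18 receptor, rose by 4.03 ± 0.38, and by 3.18 without library 89. Il6st, the signalling chain shared by receptors of the interleukin-6 family, fell from 430 to 515 CPM to 96.7 and 163 CPM (log2 change -1.87 ± 0.17, adjusted p = 4.3e-05, edgeR). Zfp36, which promotes the decay of cytokine messages such as Tnf, fell by 0.88 ± 0.11, and did not pass in 1 fit over all groups (-0.87, adjusted p = 0.20). Il10ra fell by 0.99 ± 0.15. Library 89 held more Mefv, Irak3 and Il18rap than library 80, and also the higher neutrophil marker sum (51160 against 17890 CPM). The part of neutrophil RNA in these rises was not tested.

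At 6 weeks 4 of 54 tested pathway genes rose and 3 fell in the constitutive knockouts (median change -0.03), shares near the 6.76% and 5.24% of all genes. Nlrc4, an inflammasome sensor for bacterial proteins, stood at 9.24 to 18.8 CPM in knockouts and 0.122 to 0.272 CPM in controls (log2 change 5.94 ± 0.39, adjusted p = 3.9e-06, edgeR). Irak3 rose by 1.95 ± 0.21 and Nfkbiz, a nuclear regulator of NF-kappaB targets, by 1.21 ± 0.17. Il6st fell by 0.83 ± 0.17, Pycard, the adaptor between sensor and caspase-1, by 0.53 ± 0.12, and Nek7, a partner of Nlrp3, by 0.42 ± 0.11. Pycard did not pass without knockout 380 (-0.45, adjusted p = 0.071), and Nek7 did not pass without 2 of the 4 controls or any 1 knockout (-0.43 to -0.41). In 1 fit over all groups neither passed (adjusted p = 0.10 and 0.15). Counts of Il16, Il1rap, Irak3, Nek7, Nfkbib, Pycard and Zfp36 are uncertain where their exons overlap another gene.

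In the inducible knockouts at P0, 1 of 58 tested pathway genes rose and 7 fell, where 6.81% of all genes rose and 3.56% fell. Il16 stood at 47.0 to 50.7 CPM in knockouts and 91.1 to 110 CPM in controls (log2 change -1.05 ± 0.15, adjusted p = 0.0018, edgeR). Gsdmd, the pore former of pyroptosis, fell by 0.83 ± 0.14 and Il10ra by 1.05 ± 0.18. Nfkbib, a relative of Nfkbia, rose by 0.67 ± 0.18 and did not pass when any 1 of the 7 libraries was left out (0.55 to 0.74). At 2 weeks 3 of 51 fell and none rose, where 1.13% of all genes fell and 1.11% rose. Tnfaip3, an enzyme that limits NF-kappaB signalling, Casp4, the caspase that senses bacterial lipopolysaccharide, and Rel, an NF-kappaB subunit, fell by 0.46 ± 0.11, 0.68 ± 0.17 and 0.37 ± 0.09. Leaving out a library ended the call of Tnfaip3 for 7 of the 8 libraries and of Casp4 and Rel for 6, and none of the 3 passed in 1 fit over all groups (adjusted p = 0.59, 0.33 and 0.60). None of 56 passed at E16 (19 at an unadjusted p under 0.05, all lower, and 6 by DESeq2) and none of 52 at 6 weeks (5, all lower, and 0 by DESeq2). By the same unadjusted limit there were 20 of 58 at P0, 17 lower, and 21 of 51 at 2 weeks, 20 lower. DESeq2 called 12 and 6 of these lists. Over all genes, from E16 to 6 weeks, 2306 of 17594, 4823 of 17573, 2214 of 13921 and 626 of 14217 passed the unadjusted limit. How many of those were lower was not counted, so the direction of the pathway genes has no share beside it. DESeq2 called 881, 2911, 662 and 44 of all genes.

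The models were then compared directly, as the constitutive minus the inducible effect at one age. At P0 5 of 9 genes differed, where 30.9% of all genes did (14.0% upward and 16.9% downward). The difference was 2.46 ± 0.44 for Il1b (adjusted p = 0.0011), 1.71 ± 0.40 for Il1rn (0.0054), -2.11 ± 0.63 for Il1a (0.021), -1.04 ± 0.25 for Nlrp3 (0.0062) and -1.34 ± 0.25 for Casp1 (0.0014), in edgeR's test. That of Il1a was -3.31 without constitutive knockout 68, and did not pass without constitutive knockout 73 or 76 or inducible control 54 or 55 (-2.02 to -1.64), nor without a filter on low counts (-2.11, adjusted p = 0.09). The Il1b and Il1rn effects were thus more upward, and the Il1a, Nlrp3 and Casp1 effects more downward, in the constitutive model.

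At 2 weeks 8 of 9 genes differed between the models, against 31.2% of all genes (16.6% upward and 14.7% downward). Il1rn, with 6.25 ± 1.18 (adjusted p = 0.0013, edgeR), and Il1b, with 4.20 ± 0.49 (adjusted p = 5.6e-06), had the largest differences. The value of Il1rn was 5.09 without constitutive knockout 89, 6.88 without 80 and 7.25 without control 81. Tnf differed by 1.82, Casp1 by 1.02, Nfkbia by 0.87, Il1a by -1.94, Il6 by -1.38 and Nlrp3 by -0.96. Without constitutive knockout 89 the values for Tnf, Nfkbia and Il6 were 1.36, 0.39 and -0.76 and did not pass. Il6 was -2.47 without knockout 80, and also did not pass without inducible control 1 or knockout 13 (-1.30 and -1.29), nor Nfkbia without inducible control 4 (0.77) or a filter on low counts (0.88, adjusted p = 0.071).

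In 6-week mice the models differed for Il1b (1.87 ± 0.45, adjusted p = 0.017, edgeR) and Tnf (2.01 ± 0.49, adjusted p = 0.022), 2 of 9 genes where 4.95% of all genes differed (2.54% upward and 2.41% downward). Il1b did not pass without 1 constitutive knockout (1.58), nor Tnf without 1 constitutive knockout or inducible control 1 (1.91 and 1.68). For Il1rn the difference was 1.26 ± 1.02 (adjusted p = 0.65), and 2.68 without inducible knockout 6, which passed (adjusted p = 0.042). Casp1 passed without inducible knockout 4 (0.85, adjusted p = 0.0052), and Nfkbia without inducible control 1 (1.32, adjusted p = 0.021) and by DESeq2 (1.15, adjusted p = 0.015).

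Within the constitutive model the effect changed between P0 and 2 weeks for 6 of 9 genes, against 30.8% of all genes (21.7% upward and 9.07% downward). All 6 moved upward: Il1rn by 4.95 ± 0.81, Tnf by 2.96 ± 0.56, Il1b by 2.09 ± 0.39, Casp1 by 1.70 ± 0.22, Nfkbia by 1.12 ± 0.30 and Nlrp3 by 0.64 ± 0.22. Il1rn moved by 3.79 without 2-week knockout 89, 5.60 without 80 and 5.93 without 2-week control 81. Nfkbia did not pass without knockout 89 (0.65), and Nlrp3 did not pass when any 1 of 9 of the 13 libraries was left out (0.49 to 0.68), without a filter (0.63), by DESeq2 (0.43) or with its size factors (0.43). From 2 to 6 weeks 3 of 9 changed, against 15.8% of all genes (5.88% upward and 9.92% downward), with Il1rn moving by -3.45 ± 0.90 (adjusted p = 0.022, edgeR) beside the changes in Il1b and Il1a given above. That of Il1rn did not pass without knockout 89 (-2.26), and was -4.06 without 80 and -4.47 without control 81. Neither Il1rn nor Il1a passed without a filter on low counts (adjusted p = 0.079 and 0.066). Without single libraries further differences passed: from P0 to 2 weeks Il1a without P0 knockout 68 (3.23) and Il6 without 2-week knockout 80 (-2.02), and from 2 to 6 weeks Il6 without knockout 80 (1.93) and Nlrp3 without 6-week knockout 380 or control 400 (0.70 and 0.67).

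Controls were also compared across age, on levels per kilobase. At P0 in constitutive controls, Casp1 (56.8 ± 2.9 RPKM, SD, n = 4), Il18 (53.4 ± 5.8), Nfkbia (49.6 ± 7.1) and Il1a (49.5 ± 10.7) lay within their spread of each other and above Nlrp3 (11.0 ± 1.6) and Il1b (9.71 ± 2.86). Tnf (4.96 ± 2.44), Il1rn (2.07 ± 0.60) and Il6 (0.916 ± 0.097) came next, with Il10 (0.081 ± 0.108) the lowest. By 6 weeks the order was led by Il1a (124.6 ± 33.1), Nfkbia (83.8 ± 15.6) and Il18 (74 ± 11.6), and Il6 (6.99 ± 0.62) stood above Il1b (3.23 ± 0.65) and Tnf (3.08 ± 1.74). Neighbours such as Nfkbia and Il18, or Il1b and Tnf, were closer than their SD.

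From P0 to 2 weeks 8 of 9 genes changed in constitutive controls, where 63.3% of all genes did (26.7% rose and 36.6% fell). Il1b fell from 9.71 to 1.29 ± 0.31 RPKM, a log2 change of -2.63 ± 0.29 (adjusted p = 2.5e-06, edgeR), and Il1rn from 2.07 to 0.143 ± 0.151 RPKM (-3.54 ± 0.56, and -4.54 without 2-week control 81). All 2-week controls lay below all P0 controls for both. Il1a rose to 101 ± 8 RPKM (1.32 ± 0.14), Il6 to 3.45 ± 0.34 (2.20 ± 0.26) and Nlrp3 to 18.9 ± 2.6 (1.06 ± 0.14), each without overlap, as for 59.3% of all genes. Nfkbia rose by 0.59 ± 0.14 and Il18 by 0.35 ± 0.13, Casp1 fell by 0.27 ± 0.10, and Tnf (-0.37 ± 0.34) did not pass. Il18 did not pass without 2-week control 77 or P0 control 70 (0.31 and 0.26), nor Casp1 without 2-week control 77 or 83 or P0 control 74 (-0.26 to -0.19). Il18 also did not pass by DESeq2 or with its size factors (0.29 in both), nor Casp1 without a filter on low counts (-0.26).

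Inducible controls, whose dams had received tamoxifen, changed in the same direction over that interval for Il1b (-3.05 ± 0.44), Il1rn (-5.04 ± 0.53), Il1a (1.31 ± 0.19), Nlrp3 (0.80 ± 0.14) and Casp1 (-0.59 ± 0.11), 5 of 9 genes against 54.7% of all genes (21.9% rose and 32.7% fell). Il1rn went from 2.81 ± 0.42 to 0.075 ± 0.065 RPKM. Il6 (0.84 ± 0.35, adjusted p = 0.06), Il18, Tnf and Nfkbia did not pass, though Il6 did by DESeq2 (0.82) and, like Nfkbia, without P0 control 56 (1.18 and 0.79). Between E16 and P0 none of 9 passed in edgeR's test, against 0.0580% of all genes (0.0464% rose and 0.0116% fell), with 2 of them (Il1b at 1.01 ± 0.36 and Tnf at 1.06 ± 0.42) at an unadjusted p under 0.05 and 0 called by DESeq2. The groups of tamoxifen and untreated controls were not set against each other here. Neutrophil marker sums in controls were 115 to 830 and 134 to 222 CPM at 2 weeks in the 2 models and 688 to 1635 and 1089 to 3796 CPM at P0, and their part in the falls of Il1b and Il1rn was not tested.

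From 2 to 6 weeks Il6 rose in both sets of controls, by 0.99 ± 0.15 in the constitutive (adjusted p = 0.00039, edgeR; 17.7% of all genes called, 8.80% upward) and 1.8 ± 0.20 in the inducible (adjusted p = 2e-05; 17.1% called, 8.13% upward), to 6.99 ± 0.62 and 7.46 ± 1.41 RPKM. Every 6-week control held more Il6 than every 2-week control, in comparisons where 22.1% and 22.0% of all genes had no overlap. Il1b rose by 1.29 ± 0.27 and 1.22 ± 0.37, the second not passing without 2-week control 1, 2 or 4 or 6-week control 1, 5 or 11 (1.03 to 1.22). Nlrp3 rose in the constitutive controls (0.37 ± 0.12), and did not pass without 2-week control 77, 81 or 83 or 2 of the 6-week controls (0.28 to 0.38). Casp1 rose in the inducible controls (0.71 ± 0.10), from 36.9 ± 2.4 to 63.2 ± 5.4 RPKM. Further rises passed in other settings: in constitutive controls Il18 (0.38) and Nfkbia (0.42) by DESeq2, Casp1 (0.35) without a filter and Il1rn (2.11) without 2-week control 81, and in inducible controls Tnf (0.85) by DESeq2 and Nfkbia (0.91) without 6-week control 1.

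**Figure D5:**
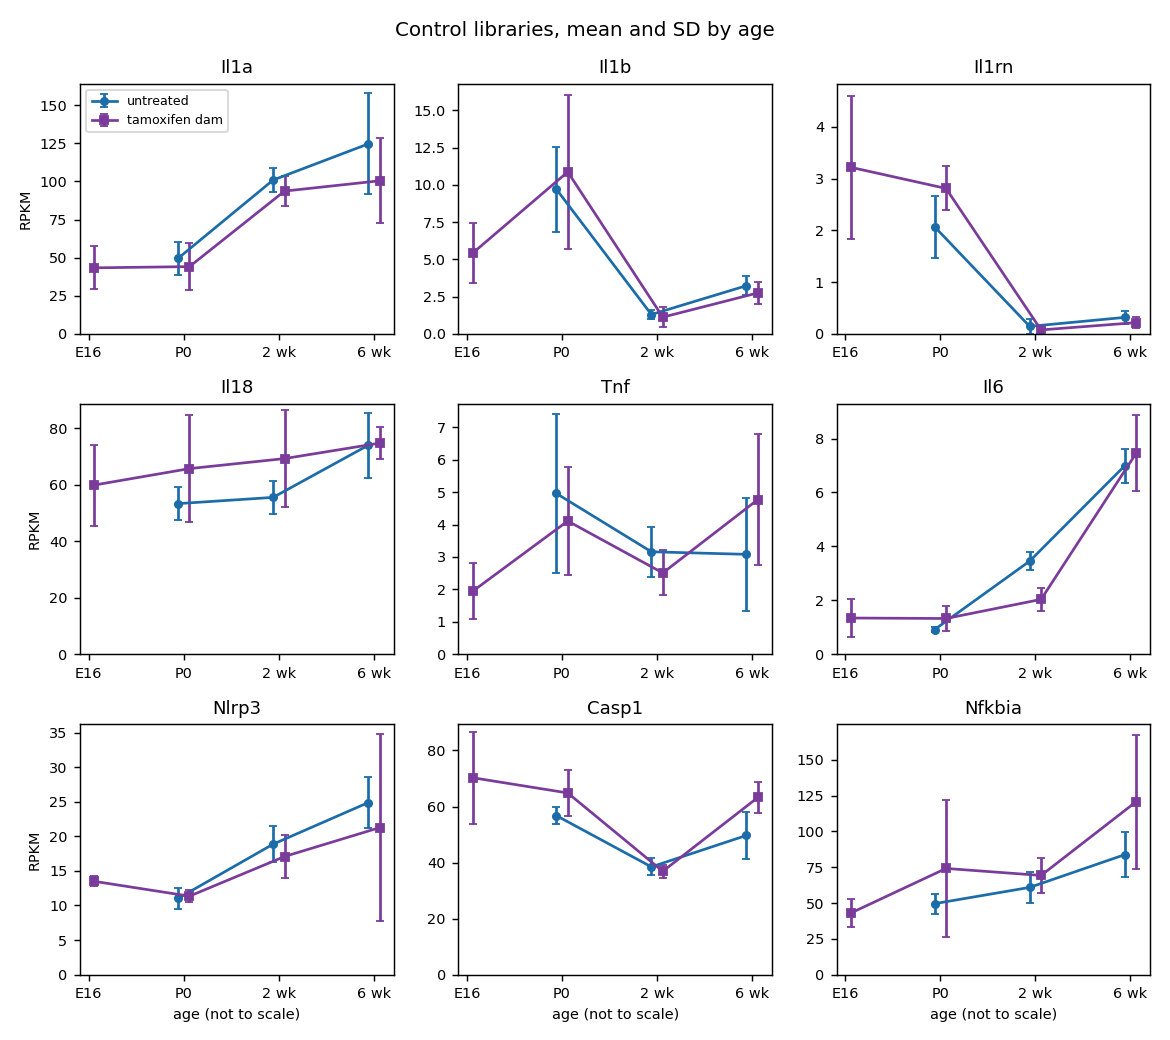
Mean RPKM (points) and SD (bars) of the 9 tested genes in control libraries by age (steps not to scale), blue for untreated constitutive controls and purple for inducible controls with a tamoxifen-treated dam, 4 libraries a point except 3 for tamoxifen at P0. Il1b and Il1rn drop between P0 and 2 weeks in both sets, Il1a climbs, and Il6 is highest at 6 weeks (6.99 and 7.46 RPKM).

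Across the 14 group means of log2(CPM + 1), a search of 12872 genes gave the 3 most alike for each member, as a description. Il1a went with Entpd1, Adap2 and Fgd2 (Pearson r 0.991 each), Nlrp3 with Mfng (0.980), Cebpa (0.976) and Irak2 (0.973), Il1b with Lrg1 (0.958), Slc35e4 (0.946) and Dnah8 (0.939), and Il1rn with Cd44 (0.970), Cmpk2 (0.970) and Gda (0.969). For Il6 they were Creb3 (0.974), Gopc (0.957) and Hemk1 (0.953), and for Tnf Ccl12 (0.911), Cd300e (0.878) and Syf2 (0.876). Casp1 went with Triap1 (0.921), Ms4a6d (0.913) and Dhx58 (0.900), Il18 with Cradd (0.917), B3galt5 (0.904) and Zfp976 (0.872), and Nfkbia with Rgs1 (0.918), Casp4 (0.897) and Fgf2 (0.887). The genes nearest to Il10 rest on groups at 0 and are not read. Between members, Tnf was near 0 with Il1a (-0.057) and Nlrp3 (-0.015), and Il1b ran against Il1a (-0.678). The points share libraries, depth and cell makeup, and the values carry no test.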

How the data were processed

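RNA of sorted mouse microglia was sequenced in 50 libraries. Per the labels, cDNA was amplified from total RNA with a SMARTer ultra-low-input kit, which does not mark strand, and tagged with Nextera XT. Per the submitters' processing notes, tools were CASAVA 1.8.2, STAR 2.5.2b, featureCounts 1.5.1 of Subread and limma 3.28.21, with build GRCm38. The annotation release and strand setting are not given in the sources used here. The authors deposited integer counts per gene, and a CPM table by the authors equals the count scaled to the library total within rounding. The deposited log2 table was not used. Of 48526 genes, 48058 matched a symbol, and locations come from GENCODE vM21.

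Groups come from the genotype, treatment, age and title of each library. Titles number the libraries, and whether each is 1 animal or a pool is not stated, so the spread may be partly technical. The 67 replicate pairs differed by a chi-square per gene of 9.98 to 214, over genes with at least 20 counts.

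Fits used edgeR 4.0.16 (R 4.3.3, limma 3.58.1), each on the groups compared: filterByExpr, TMM, robust quasi-likelihood, adjusted p under 0.05. Alternatives were DESeq2 1.42.0, its size factors in edgeR, no filter, 1 fit over all 14 groups for the knockout comparisons, and each library left out. RPKM is CPM over the deposited gene length. The fits were also run on simulated data with the same spread for all genes and few changed genes. That run does not show how they behave where many genes changed, as in the constitutive knockouts. Comparisons that use the same control libraries share their error.

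The genes, lists and naming rule were chosen with earlier results of these data known. Named are all 10 members, 3 check genes, up to 3 rises and 3 falls of the 60 pathway genes with the smallest adjusted p per comparison, and the 3 genes most alike each member among genes reaching a group mean of 5 CPM.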

Additional observations from a re-analysis of the deposited data

Results flagged for a closer look

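Tests of a difference between effects passed for 25 gene and comparison pairs. Of all genes, 4.38% to 31.2% passed in these comparisons, as given with each above. Between the models at P0, constitutive minus inducible, they were Il1a (-2.11), Il1b (2.46), Il1rn (1.71), Nlrp3 (-1.04) and Casp1 (-1.34), as log2 values. At 2 weeks they were Il1a (-1.94), Il1b (4.20), Il1rn (6.25), Tnf (1.82), Il6 (-1.38), Nlrp3 (-0.96), Casp1 (1.02) and Nfkbia (0.87). At 6 weeks they were Il1b (1.87) and Tnf (2.01). Within the constitutive model, the effect moved from P0 to 2 weeks for Il1b (2.09), Il1rn (4.95), Tnf (2.96), Nlrp3 (0.64), Casp1 (1.70) and Nfkbia (1.12). From 2 to 6 weeks it moved for Il1a (1.29), Il1b (-1.92) and Il1rn (-3.45). In the inducible model the effect on Il1a moved from P0 to 2 weeks (1.84). Errors and p-values are given above for most of these pairs, but not for all.

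Single libraries stood apart from their group in 11 of 85 sets of 1 gene in 1 group of 4. The gap to the nearest library was above Dixon's 95% critical value. Chance passes it in about 1 of 20 sets of normally spread values, which the few counts of Il10 are not. High libraries in constitutive controls were a 6-week library for Il1a (344 CPM), P0 library 71 for Il1a (129 CPM), another at 6 weeks for Il1rn (2.75 CPM) and P0 library 74 for Il6 (2.57 CPM), and P0 library 70 was low for Il18 (31.9 CPM). In inducible controls, library 1 at 6 weeks was high for Tnf (12.7 CPM) and library 6 at E16 for Il10 (0.809 CPM). Among inducible knockouts, 53 was high for Il1rn (11.8 CPM) and 57 for Nfkbia (235 CPM) at P0. Library 4 at 6 weeks was high for Casp1 (123 CPM). It was also the 1 library of its group with any Il10, at 1 count (0.0657 CPM). Where 1 library alone has counts, the gap always passes.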

How the results depend on the processing

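Outside leave-one-out, the 9 tested genes gave 554 values under other settings, and Il10 gave none. Of the 554, 517 kept their direction and side of the threshold, 14 lost and 21 gained the call and 2 changed sign. Both were Il6 in 1 fit over all groups, at 0.11 in the constitutive P0 and -0.0096 in the inducible P0 comparison. With 1 library left out, 1386 of 1540 values kept both, 54 lost and 25 gained the call, and 75 changed sign, none of them called. The named pathway genes kept 97 of 104 values and lost 7 calls, and with 1 library left out kept 140 of 172 and lost 32. No paired analysis was possible because the groups compared share fewer than 2 replicate numbers.

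With 1 library left out, values that changed sign ranged as follows. In the knockout comparisons they were, at inducible E16, Il6 (-1.16 to 0.26) and Tnf (-0.66 to 0.44), at inducible P0 Il6 (-0.16 to 0.35), Nfkbia (-1.05 to 0.45) and Tnf (-0.095 to 0.52), at inducible 2 weeks Il1b (-0.34 to 0.36), at inducible 6 weeks Il18 (-0.074 to 0.24), Il1rn (-0.30 to 1.5), Il6 (-0.28 to 0.13) and Nlrp3 (-0.59 to 0.17), and at constitutive 6 weeks Il6 (-0.52 to 0.18). In the model differences they were Il18 (-0.39 to 0.22), Il6 (-0.47 to 0.058) and Nfkbia (-0.87 to 0.64) at P0, and Il6 (-0.43 to 0.27) and Nlrp3 (-0.42 to 0.34) at 6 weeks. In the age differences of the effect, Nfkbia ranged from -0.39 to 0.45 (constitutive, 2 to 6 weeks) and -0.49 to 1.03 (inducible, P0 to 2 weeks). In inducible controls from E16 to P0 they were Casp1 (-0.24 to 0.057), Il18 (-0.13 to 0.28), Il1a (-0.28 to 0.27), Il1rn (-0.38 to 0.16) and Il6 (-0.34 to 0.26), from P0 to 2 weeks Nfkbia (-0.12 to 0.79), and from 2 to 6 weeks Il18 (-0.094 to 0.17), Il1a (-0.12 to 0.14) and Nlrp3 (-0.25 to 0.51). In constitutive controls Tnf ranged from -0.54 to 0.031 (P0 to 2 weeks) and -0.54 to 0.11 (2 to 6 weeks).

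Counts of all genes called moved by over 1.5 times in these cases, and the cause was not tested. At inducible E16, 0 calls became 881 by DESeq2 and 1576 in 1 fit over all groups. At inducible P0, 1823 became 2911 and 2743, and 1149 without control 56 and knockout 57. At inducible 2 weeks 313 became 888 without a filter, 662 by DESeq2 and 84 in 1 fit, and at 6 weeks 9 became 25, 44 and 14. The inducible effect difference from P0 to 2 weeks went from 785 to 1576 by DESeq2, and inducible controls from E16 to P0 from 10 to 56 without a filter and 412 by DESeq2. Leaving out 1 library, whether or not the count moved that far, gave 5514 to 8837 calls at constitutive P0, 5199 to 6898 at 2 weeks and 1153 (without knockout 380) to 1825 at 6 weeks. In the inducible model it gave 0 to 638 (without knockout 1) at E16, 680 (without control 55) to 1638 at P0, 94 (without knockout 13) to 938 (without knockout 6) at 2 weeks and 5 (without control 1) to 18 (without knockout 4) at 6 weeks. Model differences ranged over 3842 (without constitutive knockout 73) to 6067 at P0, 3611 to 5337 at 2 weeks and 531 to 834 at 6 weeks. Age differences of the effect ranged over 4796 to 6467 (constitutive, P0 to 2 weeks), 1101 (without knockout 89) to 3123 (constitutive, 2 to 6 weeks) and 514 (without control 3 of 2 weeks) to 1048 (inducible, P0 to 2 weeks). Control changes with age ranged over 9958 to 10448 and 1886 to 3137 in the constitutive model, and over 3 (without P0 control 55) to 126 (without E16 control 2), 7917 to 8933 and 1765 to 2459 in the inducible model.

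With DESeq2 size factors the share of calls that were upward went from 70.5% to 59.1% in the constitutive effect difference from P0 to 2 weeks, and the median log2 value of all genes from 0.11 to -0.10. In the model difference at P0 they went from 45.3% to 55.2% and from -0.035 to 0.087. In 1 fit over all groups the share went from 65.7% to 47.1% at inducible P0 and from 49.5% to 78.6% at inducible 2 weeks. Depth limited Il10 in every group and Il1rn at 2 weeks in the inducible model. Groups of 2 to 4 libraries set the precision elsewhere.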

Other observations

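Receptor genes of these pathways changed in both directions, and the part of cell makeup in these changes was not tested. In the constitutive P0 knockouts 6 of 11 receptor genes fell and 2 rose, where 20.2% of all genes fell and 21.4% rose, and at 2 weeks 3 fell and 5 rose, where 17.8% fell and 24.4% rose. Il10ra, the receptor chain for a cytokine that had 0 counts in 6 groups, was itself plentiful: 171 to 260 CPM in constitutive P0 controls and 711 to 950 CPM in 2-week controls. Its level fell in the constitutive knockouts at P0 and 2 weeks and in the inducible knockouts at P0, given above.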
